A study of Homo sapiens with 6 samples.

Results

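Sense-intronic RNAs are non-coding RNAs whose genes are annotated inside an intron of another gene, the host, on the same strand. In these libraries 254 of 894 annotated sense-intronic genes, among 58735 genes in all, had a mean raw count of at least 10 over the 6 libraries. They were chosen by that count and by the annotated gene class alone. The rule therefore used the level over all libraries together and not the difference between the groups, but a gene low in one group can pass it through the other. The count of the 3 members just inside the limit, AC009269.5, AC005391.1 and AC009704.2, averaged 10.0, and that of AC036176.3, AL606834.2 and AC018926.1, just outside it, averaged 9.83, 9.67 and 9.67.

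The libraries came from HCT-8, a human colorectal carcinoma line grown as a monolayer. The 5-FU group held 3 libraries of cells given 5-fluorouracil at its 10% inhibitory concentration, and the control group held 3 libraries of untreated cells. The sources used here give neither the molar dose nor the duration. Whether the 3 samples of a group came from separate cultures is not stated, so the p-values rest on a spread between samples that may be technical.

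Introns are removed from a nascent transcript while or soon after it is made, and most intronic RNA is then debranched and degraded in the nucleus by exonucleases and the nuclear exosome. Some intronic loci have their own promoter or an RNA that outlives splicing, and the annotated sense-intronic class collects such candidates. 5-FU, a pyrimidine analogue, blocks thymidylate synthase and is also built into RNA. A read from an unspliced or partly degraded host transcript lies on the same bases and the same strand as a read from a separate intronic RNA, so the 2 cannot be told apart in gene counts. The named library kit does not mark strand, and the strand setting of the counting is not given in the sources used here.

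A host, a same-strand gene whose start and end contain the member, was found for 248 of the 254 members. The 6 without one were MIR600HG, AC097639.1, AC010186.3, AL365273.1, AC016747.3 and AL357140.2. The 248 members lay in 229 distinct hosts, and 234 of the members lay in a protein-coding host. For 22 members more than 1 gene qualified, and the one with the highest mean count was taken. The members were short and low: their exonic length had a median of 644.5 bases (183 to 6943), 144 of them consisted of a single block of exons, and their mean count had a median of 25.7 (10.0 to 971). Hosts spanned a median of 54172 bases. The members sat along the whole host, 124 nearer its 5′ end and 124 nearer its 3′ end, at a median of 1083.5 bases from the nearest host exon. Exonic bases were shared with another annotated gene by few of them. No overlap with any exon was found for 228 members, 10 shared bases with exons of their host, 14 with any gene of the same strand and 14 with a gene of the opposite strand.

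The 3′ ends of 7 members that the results turn on are shown because a separately ended RNA commonly carries a polyadenylation hexamer there, whereas an excised intron need not. Each is the last 60 bases of the longest GENCODE 29 transcript on GRCh38, written 5′ to 3′ on the transcript's strand. The AATAAA or ATTAAA nearest the 3′ end within the last 40 bases is in capitals, and a sequence without capitals has neither there. GABPB1-IT1 spans chr15:50348936-50354861 on the minus strand, AC087481.3 chr15:30926514-30928407 on the plus strand, AL442125.1 chr13:113527260-113530621 on the plus strand and AP001160.4 chr11:62807682-62808063 on the minus strand. N4BP2L2-IT2 spans chr13:32504506-32509395 on the minus strand, NPTN-IT1 chr15:73567012-73569294 on the minus strand and ANKRD10-IT1 chr13:110894639-110899172 on the minus strand.
GABPB1-IT1: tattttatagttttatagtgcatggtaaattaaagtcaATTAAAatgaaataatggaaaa
AC087481.3: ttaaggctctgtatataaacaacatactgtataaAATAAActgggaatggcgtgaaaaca
AL442125.1: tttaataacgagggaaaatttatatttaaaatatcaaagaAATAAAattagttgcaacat
AP001160.4: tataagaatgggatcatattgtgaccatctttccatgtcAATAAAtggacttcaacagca
N4BP2L2-IT2: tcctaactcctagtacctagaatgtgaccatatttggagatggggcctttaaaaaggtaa
NPTN-IT1: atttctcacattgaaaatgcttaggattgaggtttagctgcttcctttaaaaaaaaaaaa
ANKRD10-IT1: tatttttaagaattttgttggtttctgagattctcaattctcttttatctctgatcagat

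One of these hexamers stood in the last 40 bases of 130 of 254 members (51.2%). The share was 45.9% of all 894 sense-intronic genes, 73.8% of the hosts, 48.0% of lincRNA genes, 70.4% of protein-coding genes and 38.3% of the 58419 genes with a transcript long enough. Their reverse complements, TTTATT and TTTAAT, stood in the same window of 7.09% of members and 6.22% of all genes. A match describes letters and is not a measured end.

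The libraries of a group were not equally alike. By chi-square per gene, 5-FU replicate 1 differed from replicates 2 and 3 by 17.8 and 23.0, against 9.02 between those, and control replicate 2 differed from replicates 1 and 3 by 22.7 and 23.4, against 10.2 between those. The difference in share and the counts of members and pairs called are therefore also given without either library. Most other summary values rest on all 6 libraries.

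Sense-intronic genes took a larger share of counts after 5-FU. The share was 0.106%, 0.0964% and 0.0874% in the 5-FU libraries and 0.0404%, 0.0457% and 0.0411% in the control libraries, so every 5-FU library lay above every control library. The means were 0.0966% ± 0.00932 and 0.0424% ± 0.00291 (SD, n = 3 per group), a difference of 0.0542 percentage points and a ratio of 2.28 (exact two-sided permutation p = 0.1, the smallest that 3 against 3 can give). At least 1 count fell on 619, 612 and 613 of the 894 genes in the 5-FU libraries and on 520, 555 and 511 in the control libraries, although the 5-FU libraries were the shallower ones (18459939 to 20613228 counts, against 21659252 to 23495607). The difference was 0.0495 points without 5-FU replicate 1, the library with the highest share, and 0.0559 without control replicate 2. Mitochondrially encoded genes took 26.7% of counts in the 5-FU and 4.80% in the control libraries; with them left out of the total, the sense-intronic share was 0.132% ± 0.0152 and 0.0445% ± 0.00308, a ratio of 2.96. Shares in bulk RNA do not tell more of an intronic RNA from less of the other RNA, nor fewer cells of a type from less RNA per cell.

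**Figure D1:**
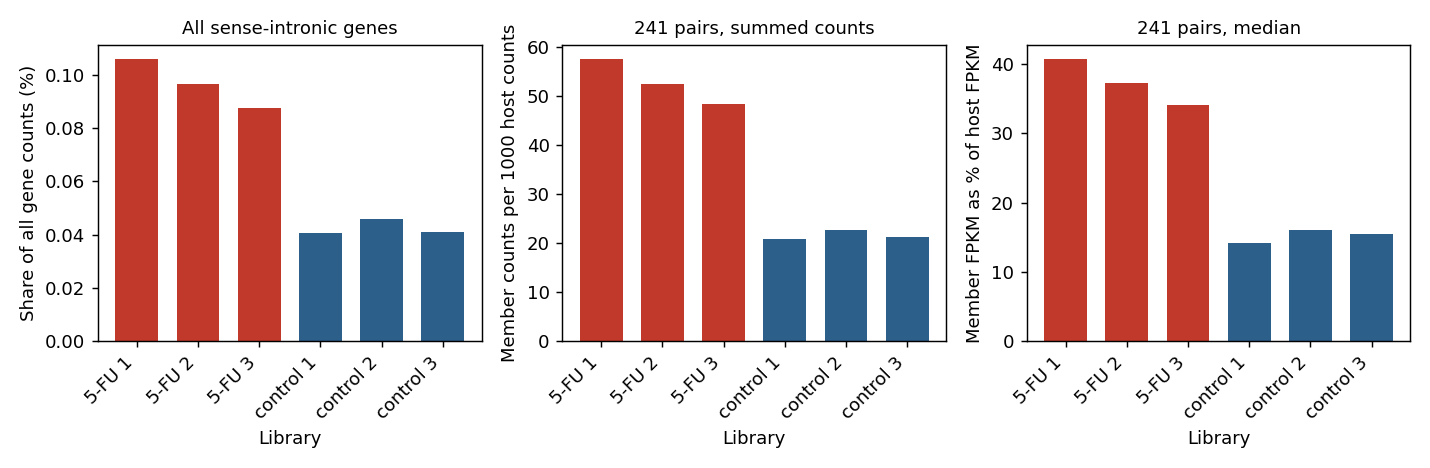
Bars give 1 library each, 5-FU in red and control in blue: the share of all counts on the 894 sense-intronic genes in percent, the summed counts of the members per 1000 counts of their hosts, and the median over 241 pairs of member FPKM as a percentage of host FPKM. In each panel every 5-FU library is above every control library, for the second with 57.5, 52.4 and 48.3 against 20.8, 22.7 and 21.3.

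Most individual members were higher after 5-FU. Of the 252 members with enough counts to be tested (AC011479.2 and AC005391.1 were not), 173 were higher, 3 were lower and 76 were not called at an adjusted p under 0.05 in edgeR's quasi-likelihood test over 19771 genes. The background was wide, with 36.3% of all tested genes called higher and 33.9% called lower; among members the shares were 68.7% and 1.19%. Without 5-FU replicate 1 161 members were higher and 2 lower, and without control replicate 2 164 were higher and 4 lower. A difference of at least 2-fold was reached by 149 of the 173. The median log2 fold change of tested members was 1.20 (-2.64 to 4.99), against 0.09 over all tested genes. The ranges of CPM, counts scaled to library size, were apart between the groups for 189 of 252 members (75%), which is near the 74.3% of all tested genes.

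The count limit and the low level of the members bear on those numbers. A mean count of 10 was reached in the 5-FU group but not in the control group by 66 of the 252, of which 59 were called higher; a member that passes through 1 group alone is bound to be higher in it. None reached it in the control group alone. Of the 186 that reached it in both groups, 114 were higher, 3 lower and 69 not called. Other genes were not split in that way, so these numbers have no background chosen alike. Low genes of any class also tended upwards: at a mean count of 10 to under 50, 55.8% of 5067 tested genes were higher and 6.81% lower (median log2 fold change 1.03), with 54.8% and 7.38% for protein-coding genes. Of the 193 members in that range, 69.9% were higher and none was lower by edgeR (median 1.30). The gap to protein-coding genes was wider at a mean count of 50 to under 1000, where 38 of 59 members were higher and 3 lower (median 0.85), against 27.5% higher and 42.0% lower of 7386 protein-coding genes (median -0.19). Of the 1651 genes in that range that are neither protein-coding nor sense-intronic, 56.9% were higher and 15.8% lower (median 0.74). None of these gaps was tested.

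The most abundant member was ANKRD10-IT1, in an intron of ANKRD10, a gene of an ankyrin repeat protein. It had 1387, 1183 and 1318 counts in the 5-FU libraries and 587, 706 and 646 in the control libraries, or 64.9 ± 4.98 and 30.04 ± 3.21 CPM (SD, n = 3 per group). Its groups were well apart (log2 fold change 1.11, SE 0.13, edgeR adjusted p = 1.54e-05). Z83843.1 lies in FTX, a long non-coding RNA of the X-inactivation centre, and had 640, 682 and 623 counts after 5-FU against 122, 141 and 120 in control (log2 fold change 2.46, SE 0.15). AC087481.3 lies in FAN1, a nuclease of DNA crosslink repair, and had 569, 451 and 484 counts after 5-FU against 207, 216 and 220 in control (1.33, SE 0.15). Both passed edgeR's test (adjusted p = 6.60e-07 and 1.52e-05).

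N4BP2L2-IT2, in N4BP2L2, had 555, 354 and 355 counts after 5-FU against 99, 118 and 90 in control, a log2 fold change of 2.16 (SE 0.22). MIR600HG, the host of a microRNA and 1 of the 6 members without a containing gene, had 457, 351 and 369 counts after 5-FU against 214, 210 and 184 in control (1.07, SE 0.16). These groups did not overlap either. Of the 10 most abundant members, 9 were higher by edgeR. The exception was AC135050.6, in KAT8, a histone H4 acetyltransferase, with 205, 179 and 183 counts after 5-FU and 264, 196 and 201 in control (log2 fold change -0.11, edgeR adjusted p = 0.589). GABPB1-IT1 was called in the reported fit (0.60, SE 0.19, edgeR adjusted p = 0.0143) with 713, 679 and 687 counts after 5-FU against 394, 691 and 402 in control, which overlap as raw counts. On the CPM scale they were apart, at 36.3, 35.4 and 32.5 after 5-FU against 17.7, 31.2 and 19.8 in control. The call was lost without control replicate 1 (log2 fold change 0.41), without control replicate 3 (0.47), in DESeq2's test (0.46) and on the FPKM table.

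The largest increases were of genes with few counts in control cells, and all of them except AC100823.1 reached the mean count of 10 through the 5-FU group alone, so the rule favours their place at the top. AL356740.2, in MCF2L, had 23, 22 and 25 counts after 5-FU against 0, 1 and 1 in control, a ratio of 37.8 with an exact 95% counting interval of 10.1 to 318. AC100823.1, in SBSPON, was the largest among abundant members, with 669, 388 and 399 counts after 5-FU against 21, 31 and 26 in control (24.4 ± 8.41 and 1.21 ± 0.238 CPM; log2 fold change 4.33, SE 0.28, edgeR adjusted p = 8.21e-07). Its highest library was 5-FU replicate 1, without which the log2 fold change was 4.03. MAGI1-IT1, in the junction scaffold gene MAGI1, had 20, 23 and 16 counts after 5-FU against 0, 3 and 0 in control, a ratio of 21.2 (6.92 to 106); 8.26% of its exonic bases are shared with MAGI1. The other large increases were AP001160.4 in the Golgi syntaxin gene STX5 (log2 fold change 3.93), AL365436.2 in TUFT1 (3.52), AC009269.5 in UACA (3.48), AC004241.4 in SLC48A1, a heme transporter gene (3.33), and AC008543.3 in the zinc finger gene ZNF823 (3.29). Their control counts were 0 to 9 per library.

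The 3 members called lower in the reported fit all lay in hosts that were also called lower in it. AC092718.4, in the centromere protein gene CENPN, had 26, 36 and 39 counts after 5-FU against 281, 184 and 218 in control (log2 fold change -2.64, SE 0.24, edgeR adjusted p = 3.97e-06). AC007996.1, in KCTD1, had 100 to 102 counts in each 5-FU library against 173, 147 and 146 in control (-0.51, SE 0.18, edgeR adjusted p = 0.0234). That call was lost with upper-quartile factors (-0.15), plain library totals (-0.40) and a mean count of at least 50 (-0.26), and without 5-FU replicate 3 (-0.48) or control replicate 1 (-0.49). AL161891.1 lies in RFC3, a subunit of the clamp loader of DNA replication. It had 23, 51 and 44 counts after 5-FU against 133, 47 and 98 in control, so its groups overlapped (-1.13, SE 0.39, edgeR adjusted p = 0.0219). AL161891.1 is named after its value was seen. Its call was lost with upper-quartile factors, at a mean count of at least 50 and without control replicate 1, where AC092718.4 alone was lower. Without 5-FU replicate 1 only AC092718.4 and AC007996.1 were lower. In the test against the host given below, 1 of the 3, AL161891.1, was called above its host.

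Set against its host within the same library, a member usually gained. For 241 pairs with enough counts, the summed member counts per 1000 host counts were 57.5, 52.4 and 48.3 in the 5-FU libraries and 20.8, 22.7 and 21.3 in the control libraries. Per length, the median member reached 40.8%, 37.3% and 34.1% of the FPKM of its host in the 5-FU libraries and 14.2%, 16.0% and 15.5% in the control libraries. FPKM is the count scaled by gene length and library. The member's FPKM exceeded that of its host in 66, 62 and 65 pairs after 5-FU and in 32, 31 and 32 pairs in control. This ratio does not depend on how libraries are scaled to each other.

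In a test of the ratio itself, an interaction of gene and treatment in edgeR over all 1068 nested genes with a same-strand host, 168 of the 241 members rose relative to their hosts, 8 fell relative to them and 65 were not called. The count limit bears on this test too: in 66 of the 241 pairs the member reached a mean count of 10 in the 5-FU group alone, and 52 of these were called higher. Of the 175 pairs whose member reached it in both groups, 116 were higher, 7 lower and 52 not called, at a median difference of 1.12. Nested genes of other classes were not split in that way. Among all 1068 pairs 57.5% were called higher and 8.9% lower, and among the 804 pairs whose nested gene is of another class 53.2% and 10.8%; for the members the shares were 69.7% and 3.32%. The median difference, member minus host on the log2 scale, was 1.42 (-1.72 to 4.70) for the members and 0.95 for nested genes of other classes, and it was positive for 217 of the 241. Without 5-FU replicate 1 160 pairs were higher and 5 lower, and without control replicate 2 167 were higher and 7 lower. The ranges of the ratio did not overlap between the groups for 181 of the 241 (75.1%), against 70.7% of all 1068 pairs.

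**Figure D2:**
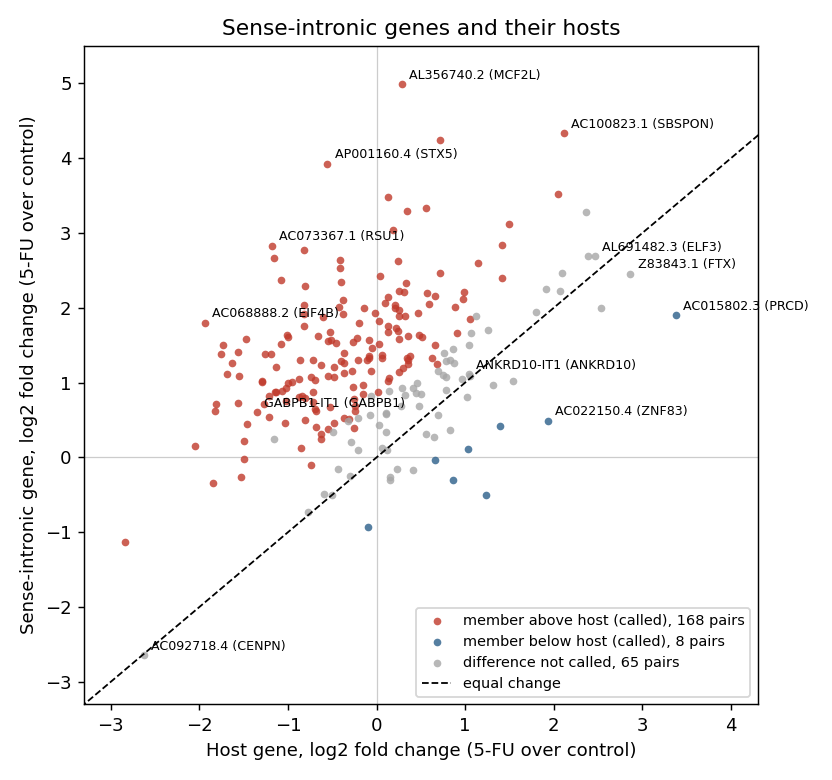
Each point is 1 of 241 pairs, with the log2 fold change (5-FU over control) of the host on the horizontal axis and that of the sense-intronic gene on the vertical axis; colours give the call of the difference and the dashed line marks equal change. Most points lie above the line on both sides of a host change of 0, and 8 called pairs lie below it.

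The hosts themselves went both ways. Of 222 distinct hosts, 67 were higher, 89 lower and 66 not called (median log2 fold change -0.06). Members in hosts that rose had a median log2 fold change of 1.505 (69 pairs), members in hosts that were not called 1.30 (75 pairs) and members in hosts that fell 1.02 (97 pairs). Across the 241 pairs the change of the member and that of the host had a Pearson correlation of 0.38 and a Spearman correlation of 0.32, given as a description, since both members of a pair come from the same libraries. By edgeR's calls 60 members were higher in a host that was lower, 55 were higher in a host that was higher and 52 were higher in a host that was not called. No member was lower in a host that was higher or not called in the reported fit. AC083799.1, in a host not called, had a log2 fold change of -0.93 there (edgeR adjusted p = 0.064). It was called lower in DESeq2's test (-1.07), limma-voom (-1.15), log2(FPKM + 1) (-0.82) and without a low-count filter (-1.08). The same held without 5-FU replicate 2 (-1.22) or control replicate 2 (-1.14), but in no other setting in which it was tested. The gain over the host was smaller where the host rose: 28 of the 55 members that rose in a rising host were called above it, and none of the 14 uncalled members there was (edgeR). The median difference was 0.47 in rising hosts, 1.20 in hosts not called and 1.96 in falling hosts, and the difference had a Spearman correlation of -0.61 with the change of the host, of which it contains the negative.

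All 60 members that rose in a falling host also passed the test of the ratio, which is nearly fixed by those 2 calls; the 6 most abundant of them are described by their values. GABPB1, which encodes a subunit of the transcription factor GABP, had 154, 179 and 171 counts after 5-FU against 506, 386 and 490 in control (log2 fold change -1.35). GABPB1-IT1 thus had 4630, 3793 and 4018 counts per 1000 host counts after 5-FU, against 779, 1790 and 820 in control, a difference of 1.98 (SE 0.26, edgeR adjusted p = 7.08e-08). Without control replicates 1 and 3 in turn, where the call on its own level was lost, the call on the ratio was kept. INE1 lies in UBA1, the gene of the main ubiquitin-activating enzyme, and had 195, 205 and 174 counts after 5-FU against 41, 91 and 52 in control. UBA1 had 4568, 4893 and 5244 counts after 5-FU against 9480, 9526 and 8942 in control, and the difference was 2.61 (SE 0.28, edgeR adjusted p = 1.20e-09).

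NPTN-IT1, in the cell adhesion gene NPTN, had 119, 94.5 and 87.2 counts per 1000 host counts after 5-FU against 26.3, 34.6 and 30.6 in control. AL442125.1, in TMCO3, had 95.6, 87.9 and 64.9 after 5-FU against 19.7, 30.1 and 26.5 in control. AL121832.3, in CABLES2, had 520, 469 and 352 after 5-FU against 150, 145 and 120 in control. AC253536.3 in CABIN1, a calcineurin-binding protein, was the fourth of this kind, and the differences of these 4 pairs were alike, at 1.71, 1.70, 1.68 and 1.64, with no overlap between the groups in any of them.

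The largest differences between member and host belonged to members with few counts, which limit the precision of the ratio. Among them AL356740.2, AC068888.2, AP001160.4 and MAGI1-IT1 reached the mean count of 10 through the 5-FU group alone, so the rule favours their place here. AL356740.2 had 16.5, 18.02 and 16.5 counts per 1000 counts of MCF2L after 5-FU against 0, 0.761 and 0.927 in control (difference 4.70, SE 0.63). AC073367.1, in RSU1, whose product acts at integrin adhesions, had 127, 117 and 98.3 after 5-FU against 12.1, 2.96 and 6.29 in control (4.02, SE 0.38). AC068888.2, in the translation initiation factor gene EIF4B, had 12.6, 11.01 and 5.07 after 5-FU against 0.897, 0.548 and 0.608 in control (3.74, SE 0.41). In the last 2 pairs the member was higher and the host lower: EIF4B had 2453, 3087 and 3745 counts after 5-FU against 12259, 14595 and 11506 in control. AP001160.4 in STX5 (4.44), AC244093.4 in AATF (3.80), AC039056.2 in the endocytic gene EHD4 (3.62), MAGI1-IT1 in MAGI1 (3.52) and AC002558.3 in CDC27, a subunit of the anaphase-promoting complex (3.45), complete the 8 largest, all with an edgeR adjusted p of 1.40e-05 or less.

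**Figure D3:**
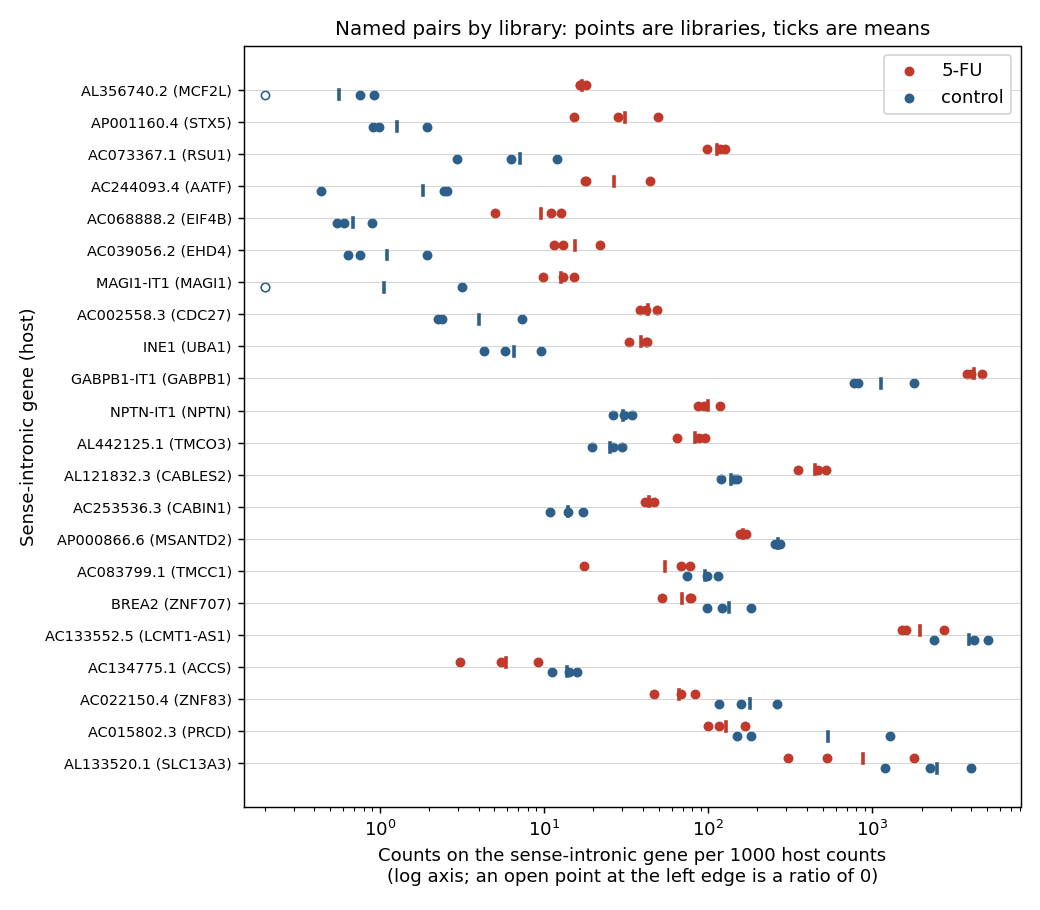
Counts on the sense-intronic gene per 1000 counts on its host, on a log axis, for the 8 largest differences, the 6 most abundant pairs in which member and host moved in opposite directions, and the 8 pairs in which the member fell relative to its host, from top to bottom. Points are libraries, 5-FU in red above control in blue, ticks are means and open points at the left edge are ratios of 0; the groups are apart in the upper 14 pairs and overlap in some of the lower 8.

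In 65 of the 241 pairs the difference between member and host was not called. ANKRD10 had 8103, 6539 and 7254 counts after 5-FU against 3927, 4311 and 3295 in control, and ANKRD10-IT1 stayed at 171, 181 and 182 counts per 1000 of them after 5-FU against 149, 164 and 196 in control (difference 0.08, SE 0.23, edgeR adjusted p = 0.782). Z83843.1 had 165, 236 and 210 counts per 1000 counts of FTX after 5-FU against 217, 313 and 273 in control, and both genes rose strongly (difference -0.40, SE 0.23, edgeR adjusted p = 0.132). AC092718.4 had 333, 271 and 361 counts per 1000 counts of CENPN after 5-FU against 327, 330 and 303 in control, while both fell (difference -0.00, SE 0.26, edgeR adjusted p = 0.986). AC007996.1, whose own call depended on the scaling as given above, differed from KCTD1 by -0.00 (SE 0.24). A difference that was not called does not show that 2 genes changed alike.

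The 8 members that fell relative to their hosts were the exception, and in 6 of these pairs the host rose and the member was not called. AC022150.4 had 91, 108 and 139 counts after 5-FU against 82, 60 and 114 in control, while its host, the zinc finger gene ZNF83, had 1935, 1584 and 1665 after 5-FU against 518, 517 and 432 in control (difference -1.41, SE 0.28, edgeR adjusted p = 4.64e-05). AP000866.6, in MSANTD2, had 157, 170 and 164 counts per 1000 host counts after 5-FU against 268, 275 and 254 in control (difference -0.70, SE 0.24, edgeR adjusted p = 0.0105); 12.1% of its exonic bases lie under a gene of the opposite strand. BREA2 in ZNF707 (-0.93), AC134775.1 in ACCS (-1.18), AC133552.5 in LCMT1-AS1 (-0.95) and AL133520.1 in the dicarboxylate transporter gene SLC13A3 (-1.72) are the others of that kind. AC015802.3 in PRCD rose less than its host (-1.52), and AC083799.1 in TMCC1 fell relative to a host that was not called (-0.86). Low counts limit several of these: SLC13A3 had 26, 10 and 17 counts after 5-FU against 8, 6 and 10 in control, and PRCD had 20, 7 and 11 in control. Of the 8, only AC022150.4 and AP000866.6 were also called in every fit that left out 1 library. Without the library whose absence brought it nearest to 0, the difference was -0.40 for AC083799.1 (without 5-FU replicate 1), -0.35 for AC015802.3 (without control replicate 2), -0.67 for BREA2 and -0.71 for AC133552.5 (both without control replicate 3), -0.88 for AC134775.1 (without 5-FU replicate 2) and -1.15 for AL133520.1 (without 5-FU replicate 1).

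ELF3, the ETS factor named in the title of the series, holds 1 member, AL691482.3, and no member lies in CD44. AL691482.3 had 28, 28 and 11 counts after 5-FU against 4, 3 and 4 in control (log2 fold change 2.69, SE 0.52, edgeR adjusted p = 0.000657). AL691482.3 reached the limit on the mean count through the 5-FU group alone. The rule thus bound it to be higher there, and its call cannot be read apart from that choice. Exons of ELF3 cover 67.3% of its exonic bases, so reads there cannot be assigned to either gene from the table. It had 5.21, 6.26 and 2.56 counts per 1000 counts of ELF3 after 5-FU against 3.33, 3.76 and 5.10 in control, so the ratios overlapped (difference 0.19, SE 0.53, edgeR adjusted p = 0.705).

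Members that share a host were not always called alike, and they were not tested against each other. CCDC92 holds 4 members, BICD1, a dynein adaptor gene, holds 3 and KLC1, a kinesin light chain gene, holds 3. All 4 members in CCDC92 gained on it, with differences of 0.92 to 1.78, and 3 of them were themselves higher. In BICD1 the member AC026356.2 gained on its host, with 156, 85.2 and 107 counts per 1000 after 5-FU against 53.3, 33.0 and 35.4 in control (difference 1.49, SE 0.29, edgeR adjusted p = 2.69e-05), while the other 2 were not called (0.31 and 0.74). None of the 3 members in KLC1 was called against it in the reported fit (0.24 to 0.48), though AL049840.4 passed in limma-trend on log2 ratios, at a mean count of at least 50 and without control replicate 1 (0.47 to 0.59). The most abundant of them, AL049840.4, was higher by edgeR in its own level, with 407, 349 and 336 counts after 5-FU against 321, 245 and 230 in control (log2 fold change 0.57, SE 0.16, adjusted p = 0.00807), a call that DESeq2's test did not give (0.42).

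The difference from the host showed rank correlations near 0 with position and size, though its median was lowest in the second stretch. By position along the host its median was 1.47 for the 72 pairs nearest its 5′ end, 0.93 for the next 49, 1.43 for the next 58 and 1.38 for the 62 nearest its 3′ end, with the host cut into 4 equal stretches. Across the 241 pairs Spearman's correlation with the difference was -0.005 for position, -0.06 for exonic length, -0.01 for the distance to the nearest host exon, 0.05 for the span of the host and -0.21 for the mean count of the member, all given as descriptions. The polyadenylation hexamers shown above stood in 84 of the 168 members called above their hosts and in 34 of the 65 not called, and in 5 of the 8 called below. Without the 10 pairs that share exonic bases with their host, the median difference over the other 231 was 1.44.

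Sense-intronic genes shared their direction with most other short or low non-coding classes. Of all 277 tested sense-intronic genes 70.4% were higher and 1.08% lower (median log2 fold change 1.29). The class of unconfirmed transcripts that GENCODE calls TEC had 69.6% higher and 4.94% lower (1.27), antisense genes 59.0% and 5.26% (0.997), lincRNA genes 53.9% and 6.28% (0.91) and snRNA genes, with only 32 tested, 78.1% and none (1.58, edgeR). Protein-coding genes had 27.8% higher and 43.6% lower (-0.21). Set against a same-strand host, the median difference was 1.29 for 109 nested TEC genes, 1.33 for 168 processed pseudogenes, 1.35 for 38 snoRNA genes, 0.73 for 86 lincRNA genes and -0.05 for 132 nested protein-coding genes. At a mean count of 10 to under 50, 70.7% of 188 member pairs were called higher and 2.13% lower, against 61.0% and 5.18% of 444 nested genes that are neither sense-intronic nor protein-coding, and 11 and 8 of 40 nested protein-coding genes. These classes were not tested against each other.

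**Figure D4:**
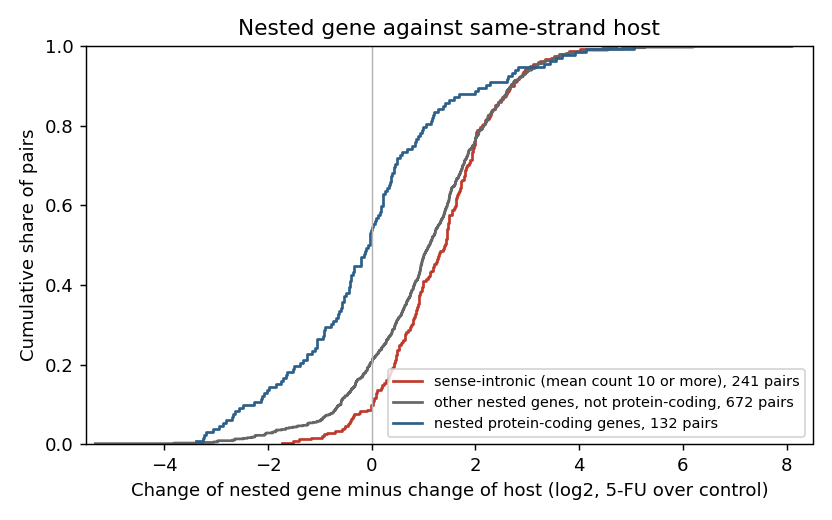
Cumulative share of pairs by the change of the nested gene minus that of its host (log2, 5-FU over control), for 241 members, 672 other nested genes that are not protein-coding and 132 nested protein-coding genes. The curves of the members and of the other non-coding genes lie near each other and mostly right of 0, and that of protein-coding genes is centred near 0, with a median of -0.05.

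**Figure D5:**
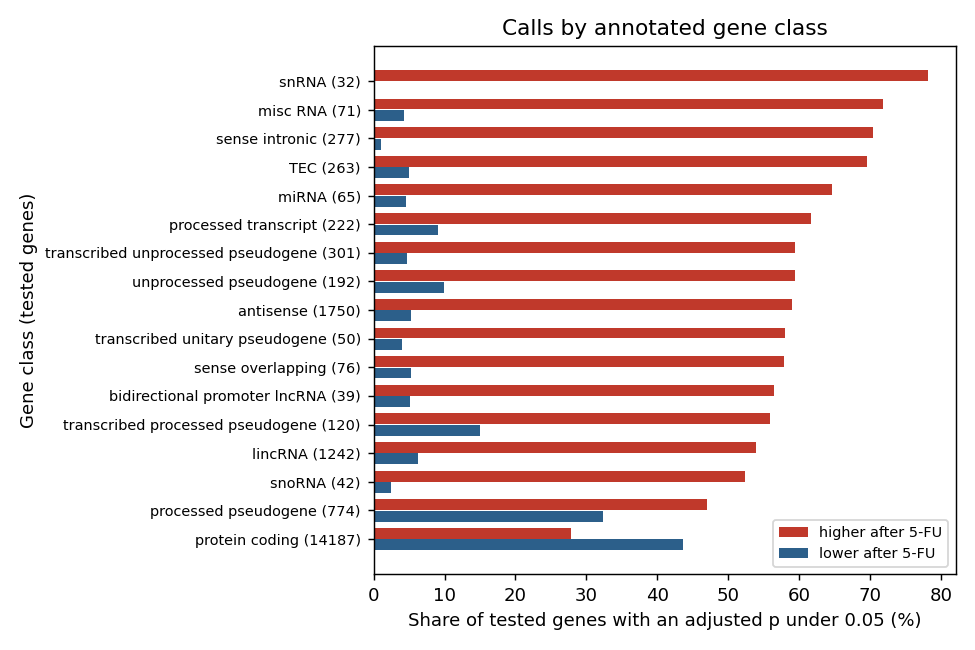
Share of tested genes called higher (red) or lower (blue) after 5-FU at an edgeR adjusted p under 0.05, in percent, by annotated gene class with at least 30 tested genes; the number tested is in brackets. Sense-intronic genes stand at 70.4% higher and 1.08% lower, and protein-coding genes at 27.8% and 43.6%.

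Genes for the factors that splice, end and clear intronic RNA were measured in the same libraries. Of a list of 28 symbols, 27 were in the table under the name used (SKIV2L2 was not, though its newer symbol MTREX was), and 20 were lower, 1 higher and 6 not called (median log2 fold change -0.60). The background is 43.6% called lower over all protein-coding genes (median -0.21) and 42.0% over those with a mean count of 50 to under 1000. Most of the factors lay above that range, such as PRPF8 with 188 to 522 CPM. The share called lower among protein-coding genes of that level is not given here. SNRPA, a protein of the U1 snRNP, had 21.0, 22.7 and 22.8 CPM after 5-FU against 87.3, 87.2 and 104 in control (log2 fold change -2.07, SE 0.12, edgeR adjusted p = 6.60e-07). CSTF2, a subunit of the cleavage stimulation factor, had 12.1, 15.4 and 13.1 CPM after 5-FU against 56.8, 47.1 and 60.4 in control (-2.02, SE 0.15). CPSF3, the endonuclease of 3′ end cleavage (-1.55), XRN2, the nuclear 5′ to 3′ exonuclease (-1.10), SNRPC, of the U1 snRNP (-1.63), and PRPF8, of the spliceosome core (-1.25), fell as well. DBR1, the enzyme that opens intron lariats, fell (-0.80), and so did the exosome genes EXOSC3 (-1.32), EXOSC10 (-0.60) and DIS3 (-0.36). CDK13, a kinase of transcription elongation, was the 1 that rose (0.46, SE 0.11). The 6 not called were SNRNP70 (0.31), PCF11 (0.23), U2AF1 (-0.61), ZCCHC8 (-0.09), ZFC3H1 (-0.07) and PABPN1 (-0.05). DBR1, the exosome genes and CDK13 are named for their roles, chosen after their values were seen. Abundant protein-coding genes fell more often than they rose throughout, and the part of these factors in the change of the members was not tested.

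Markers of the labelled cell type were present: 11 of 12 genes of colorectal epithelium averaged at least 1 CPM, with a summed level of 3780 to 4792 CPM in the 5-FU and 5030 to 6893 CPM in the control libraries. None of 5 blood or 2 liver markers reached 1 CPM. Of 6 fibroblast markers 1, COL1A1, did, and the summed level of that list was 31.9 to 61.7 CPM after 5-FU against 13.2 to 18.9 CPM in control; 2 of its genes had no count in any library. Of 3 endothelial markers 2 reached 1 CPM, and the list summed to 3.503 to 5.501 CPM after 5-FU against 2.17 to 3.12 CPM in control. Of 3 neuronal markers 1, RBFOX3, reached 1 CPM, and the list summed to 1.98 to 2.04 CPM after 5-FU against 0.763 to 1.31 CPM in control. The part of these lists in the change of the members was not tested.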

How the data were processed

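RNA-seq of 3 5-FU-treated and 3 untreated HCT-8 samples was used, grouped by the treatment label. Cells were lysed in TRIzol and the NEBNext Ultra kit made the libraries, per the labels' protocols. HISAT2 2.0.5, featureCounts 1.5.0-p3, DESeq2 1.16.1 and GRCh38 are named per the submitters' processing notes; no settings were given in the sources used here. The authors deposited raw counts per gene (58735 genes, all matching GENCODE 29 in identifier, position and length) and a table of FPKM, scaled by gene length and library by the authors. Total counts ranged from 18459939 to 23495607; intervals cover counting error only.

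Genes were tested with edgeR 4.0.16 in R 4.3.3 (filterByExpr with a minimum count of 10 and a minimum total of 15, TMM factors, quasi-likelihood test, Benjamini-Hochberg adjustment over 19771 genes, threshold 0.05). CPM are TMM-normalized. Pairs were tested in edgeR on the counts of nested gene and host together, with library as a factor and an interaction of gene and treatment, adjusted over 1068 pairs. Both fits were also run on simulated counts in which a minority of genes or pairs changed, evenly up and down. Far more changed here, so that run does not speak to the scaling or error rate in these data. Same-numbered samples did not deviate together (correlations -0.07, -0.20 and 0.06). Alternatives were other scaling factors, other count filters, mitochondrial genes left out, DESeq2 1.42.0, limma-voom (limma 3.58.1), limma-trend on log2(FPKM + 1 or 0.1), the replicate block and leaving out each library; for pairs, limma-trend on log2 ratios, the shortest containing gene as host, and nested genes with shared exonic bases left out.

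The members and lists were chosen with earlier results of these data known. The splits by mean count were chosen after seeing the data. Named members are the 10 most abundant; the 8 highest and 8 lowest log2 fold changes among called members whose groups do not overlap (only 2 were lower); the 8 largest called differences from the host each way; the 6 most abundant called opposite to their host; members in ELF3 or CD44; those in hosts with at least 3 members; and, of the factor list, the 6 of smallest p.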

Additional observations from a re-analysis of the deposited data

How the results depend on the processing

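At a mean count of at least 50 only 59 members and 53 pairs were tested; 44 members were higher and 1 lower (median log2 fold change 1.10), and 36 pairs were higher and 4 lower (median difference 0.99). At that limit 5141 of all 14068 tested genes were higher and 4935 lower (median 0.02). Upper-quartile factors gave 205 higher and 1 lower member (median 1.55, where the median of all genes was 0.45). Plain library totals gave a median of 1.30 (all genes 0.20). Without a low-count filter 5 members were lower (1.06), and 8157 of 39721 genes were higher and 7588 lower (0.63). DESeq2's test gave 135 members higher (1.07), and 6461 of these genes higher and 7267 lower (0.65). In the last 2 settings the members' median thus stood less far above that of all genes than in the reported fit (1.20 against 0.09). The log2(FPKM + 1) scale gave 5 lower (0.63), where 7136 of 16093 genes were lower (-0.20). The log2(FPKM + 0.1) scale gave a median of 0.99 with and without an FPKM filter (all genes -0.24 and 0.24). Leaving out 1 library gave 155 to 165 members higher and 1 to 5 lower (median 1.14 to 1.21), and 156 to 167 pairs higher and 4 to 7 lower (median 1.29 to 1.41). The limma-trend ratio with a prior count of 2 gave a median difference of 1.27. With the replicate block 170 members were higher and 3 lower, and 168 pairs were higher and 8 lower; the numbers do not pair the samples.

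Values near 0 changed sign. These were the log2 fold changes of AC135050.6 (0.26 with upper-quartile factors, 0.0047 with plain totals, 0.15 at a mean count of 50), AP000866.6 (0.32, 0.071 and 0.21 in those settings; -0.13 to 0.023 over the fits without 1 library), AC134775.1 (0.051 with upper-quartile factors) and BREA2 (-0.039 without filter, -0.041 in DESeq2, -0.022 and -0.032 on FPKM, the last with and without an FPKM filter; -0.10 to 0.29 without 1 library). They were also the differences from the host of AC092718.4 (0.044 and 0.0099 in limma-trend with priors of 2 and 0.5, 0.00031 with the replicate block; -0.10 to 0.13 without 1 library), AC007996.1 (0.0034 in limma-trend with a prior of 2; -0.11 to 0.064 without 1 library), AL691482.3 (-0.38 and -0.028 in limma-trend; -0.056 to 0.48 without 1 library) and ANKRD10-IT1 (-0.011 to 0.18 without 1 library). The cause was not tested.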
